A study of Mus musculus with 9 samples.

Results

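The 9 genes described here encode complement components (C1qa, C1qb, C1qc, C3, C4b and Cfb), a regulator (Serping1) and receptors for complement fragments (C3ar1 and C5ar1). They were chosen by symbol, and all 9 were listed among the 16367 genes of the table for sorted cells and among the 17035 genes of the table for cultures. C1q, built from A, B and C chains, binds antibodies, dying cells and synapses and starts the classical pathway, in which C4 and C2 are cleaved and C3 is then activated. Complement factor B (Cfb) belongs to the alternative pathway, the C1 inhibitor (Serping1) blocks the proteases attached to C1q, and C3ar1 and C5ar1 bind the small fragments released from C3 and C5. In the retina microglia are the best known source of C1q, and complement has been studied there for its part in the loss of synapses and ganglion cells under raised eye pressure.

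The series holds 9 RNA-seq libraries of wild-type mouse cells prepared as Müller glia, which span the whole retina and support its neurons, in 3 groups of 3. Sham animals had a corneal incision without oil, and animals with ocular hypertension (OHT) had received 1.2 µL of silicone oil in the anterior chamber of each eye. For both groups, cells of pools of 4 retinas, freed of dead cells, were taken with magnetic beads through an antibody against GLAST, a glutamate transporter that astrocytes also carry. The age of these animals is not given in the sources used here. The third group was made of untreated primary cultures from C57BL/6J pups 8 to 10 days old, grown on gelatin in medium with 10% serum. Nothing in the labels says that replicates are separate beyond being different pools or samples, so p-values measure the spread between these libraries.

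Sequencing depth was 37.8 to 44.5 M reads in sham (41.6 ± 3.44, SD, n = 3), 47.1 to 53.6 M in OHT (49.4 ± 3.60, n = 3) and 66.3 to 76.7 M in the cultures (72.9 ± 5.74, n = 3). The label of the sorted cells was checked against marker genes, as summed ppm, the reads of a gene in each 1e6 reads of the library. A list of 12 Müller glia genes summed to 3376 to 8423 ppm in sham and 1816 to 4029 ppm in OHT. A list of 12 microglia and macrophage genes, of which Fcrls was not listed, summed to 11845 to 24502 ppm in sham and 18109 to 18721 ppm in OHT, above the Müller glia list in each of the 6 sorted libraries. Rod genes summed to between 2743 and 26203 ppm in sham and to between 937 and 3427 ppm in OHT. In the cultures the Müller glia list was at 253 to 417 ppm, the microglia list at 91.0 to 132 ppm (Siglech and Fcrls at 0 or not listed) and a mural and fibroblast list at 16630.5 to 19562.4 ppm. The values below are therefore those of cells sorted or cultured under the Müller glia label, with RNA of other cells in them. In such bulk libraries fewer cells of a type and less RNA per cell cannot be told apart.

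Within the sorted cells the C1q chains stood far above the rest of the 9 genes. Per kb of exon, C1qb was the highest gene of the 9 in sham, at 5659 ± 984 ppm per kb (SD, n = 3). C1qc was at 2264 ± 453 and C1qa at 2162 ± 490 ppm per kb, and these ranges overlapped. The merged exons of C1qc span 1931 bases, against 1203 in its longest transcript, while both lengths are 1040 bases for C1qa. The place of C1qc against C1qa thus depends on the length used. The receptors followed, C3ar1 at 131 ± 19.7 and C5ar1 at 119 ± 17.9 ppm per kb, again with overlapping ranges. The other 4 genes were at 21.9 ± 24.6 (Serping1), 9.27 ± 11.9 (C4b), 8.79 ± 12.97 (Cfb) and 6.27 ± 9.17 ppm per kb (C3), with SDs above their means and no order beyond their spread. In OHT the same 3 tiers were seen, from 9104 ± 1072 ppm per kb for C1qb to 210 ± 72.0 for C3ar1, 97.2 ± 5.75 for C5ar1 and 3.99 ± 1.09 for C3. Reads of the C1q chains together made up 1.03% to 1.51% of the sham libraries and 1.22% to 2.26% of the OHT libraries.

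**Figure D1:**
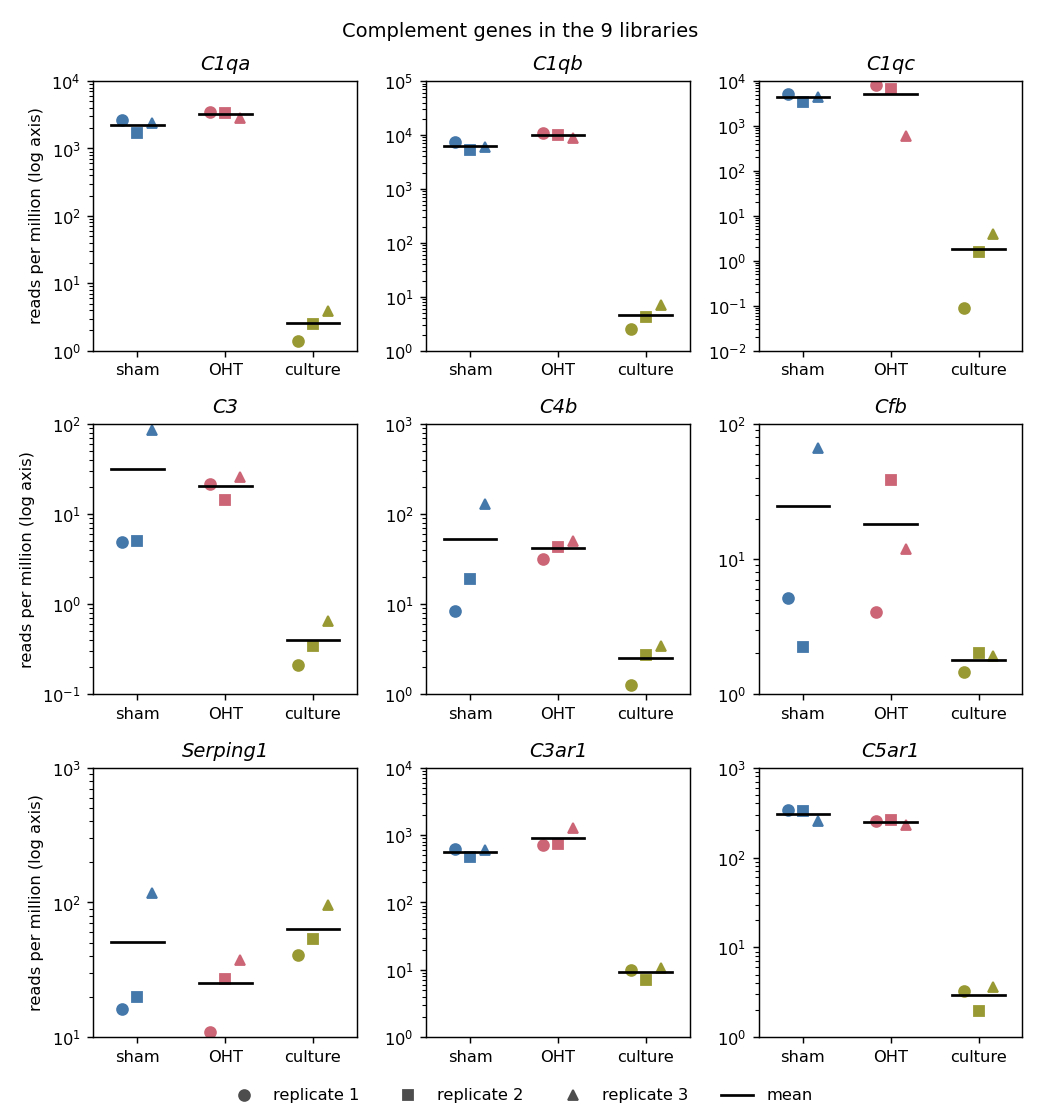
Level of each of the 9 genes in ppm of the library total (log axis, with its own range in each panel) in the sham, OHT and culture libraries; each marker is 1 library and the black line is the mean of 3. The C1q genes and both receptors sit far higher in every sorted library than in any culture, sham replicate 3 stands above the other sham libraries for C3, C4b, Cfb and Serping1, and C1qc is low in OHT replicate 3 and culture replicate 1.

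The question put to the sorted cells is how raised eye pressure changes their transcripts. Of 14403 genes fitted with limma on log2(normalised count + 1), 0% had a Benjamini-Hochberg adjusted p under 0.05, the smallest adjusted p being 0.332, and 1680 had an unadjusted p under 0.05. None of the 9 complement genes passed, and the unadjusted p was under 0.05 for 1 of them, C3ar1, against 5.37% of all genes that were higher in OHT at this level. Among the 9, the log2 difference in limma was above 0 for 6 and below 0 for 3, with a median of 0.79 against -0.12 over all genes. Of all genes 6517 were above 0 and 7886 below. The split of the 9 depends on the method. With edgeR on read counts recovered from the values, C3, C4b and Cfb turned to -0.54, -0.26 and -0.44, and C1qc turned to 0.60. With DESeq2 the same 4 genes were at -0.43, -0.17, -0.37 and 0.69, and C5ar1 was at 0.0096. C1qa, C1qb and C3ar1 were higher in each OHT library than in any sham library, which held for 9.26% of all genes. The same 3 genes were without overlap as shares of the library total, where this held for 5.44% of all genes.

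**Figure D2:**
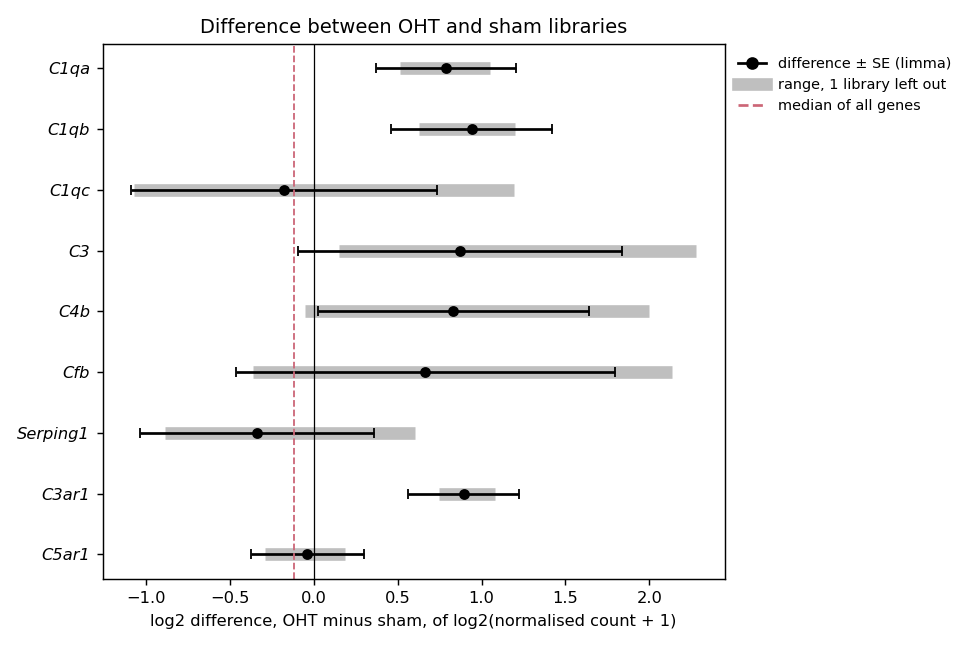
Difference between OHT and sham for each gene on the log2(normalised count + 1) scale; points with bars are the limma estimate ± SE, grey bands span the estimates with 1 of the 6 libraries left out, and the dashed line is the median of all 14403 genes (-0.12). The bands of C1qa, C1qb and C3ar1 stay between 0.51 and 1.20, while those of C1qc, C4b, Cfb, Serping1 and C5ar1 cross 0.

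C1qa and C1qb, which encode the A and B chains of C1q, were both higher in the OHT libraries without passing the test. Normalised counts of C1qa were 103652, 65916 and 102829 in sham replicates 1, 2 and 3 and 226039, 149317 and 107457 in OHT replicates 1, 2 and 3. The lowest OHT library lay just above the highest sham library. The log2 difference of C1qa was 0.79 (SE 0.42, limma adjusted p = 0.478), between 0.51 (without OHT replicate 1) and 1.05 (without OHT replicate 3). Normalised counts of C1qb were 285420, 203964 and 254575 in sham and 729382, 435827 and 330609 in OHT. For this gene OHT replicate 1 was the highest and all OHT libraries were above the sham range. Its log2 difference was 0.94 (SE 0.48, limma adjusted p = 0.466), between 0.63 and 1.20 without the same libraries. On quantile-normalised values it was 0.38 (adjusted p = 0.663).

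The level of microglial RNA differed between these libraries too. Per summed ppm of the microglia list, C1qa was at 0.108, 0.0964 and 0.204 in sham and at 0.184, 0.181 and 0.157 in OHT. C1qb was at 0.298, 0.298 and 0.505 in sham and at 0.592, 0.528 and 0.483 in OHT. On this scale the groups overlapped for both genes. Sham replicate 3, the library with the least of the microglia list, lay above all OHT libraries for C1qa. For C1qb it lay above OHT replicate 3 only. With the mean of the microglia list as a covariate, limma gave a log2 difference of 0.53 for C1qa (SE 0.43, adjusted p = 0.928) and 0.63 for C1qb (SE 0.47, adjusted p = 0.920). With the mean of the rod list in its place the differences were 0.36 and 0.54 (adjusted p = 1.00 for each).

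C1qc, the gene of the C chain, followed C1qb in 5 sorted libraries and departed from it in 1. Normalised counts were 202747, 135691 and 190400 in sham and 532205, 295380 and 22977 in OHT. OHT replicate 3 was the lowest of the 6 libraries and OHT replicates 1 and 2 were the highest, so that the OHT counts spanned 23.2-fold. The log2 difference of C1qc was -0.18 (SE 0.91, limma adjusted p = 0.941) with all libraries and 1.19 (adjusted p = 0.338) without OHT replicate 3. With all libraries it was 0.60 in edgeR and 0.69 in DESeq2, fitted to the recovered reads, so its sign depends on the method. The ratio of C1qc to C1qb reads was 0.710, 0.665 and 0.748 in sham and 0.730 and 0.678 in OHT replicates 1 and 2, and 0.0695 in OHT replicate 3. The ratio of C1qa to C1qb reads was 0.310 to 0.404 in all 6 sorted libraries, OHT replicate 3 included (0.325). Its low C1qc was therefore not shared by the other chains of the same protein.

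**Figure D3:**
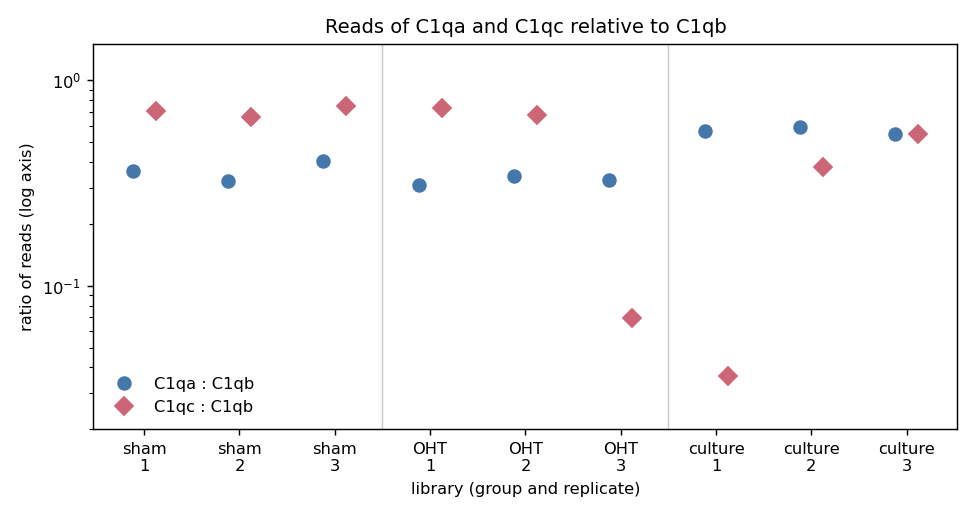
Ratio of C1qa and of C1qc reads to C1qb reads in each of the 9 libraries (log axis). The C1qa ratio stays between 0.310 and 0.404 in the sorted libraries, whereas the C1qc ratio is 0.0695 in OHT replicate 3 and 0.0361 in culture replicate 1, against 0.665 to 0.748 in the other sorted libraries.

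The loss of C1qc reads in OHT replicate 3 was one of several of its kind. Of 5550 genes with a mean normalised count of at least 1000, 126 were at least 5-fold below the lowest other library in OHT replicate 3, and in the other sorted libraries there were between 0 and 15 such genes. C1qc was 5.91-fold below the lowest other library. C1qbp, which encodes a C1q-binding protein found mainly in mitochondria, was 9.69-fold below, at 195 against 1887 to 5068 elsewhere. The transcripts of 119 of the 126 genes had a median GC content of 54.7%, against 48.9% over 5431 of the 5550 genes. The C1qc transcript has a GC content of 57.5%, while those of C1qb (57.4%) and C1qa (59.5%), equally rich, were not low in that library. The part of GC content in the C1qc value was not tested.

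Upstream sequences of C1qb and C1qc are given because these chains kept 1 ratio in 5 sorted libraries, and that of C3ar1 as a gene, like C1qa and C1qb, whose groups did not overlap. They are the 250 bases before the RefSeq start in GRCm38.p6, which is not the authors' build (mm39), written 5′ to 3′ along each gene, all of which lie on the minus strand: chr4:136886201-136886450 for C1qb, chr4:136892915-136893164 for C1qc and chr6:122856158-122856407 for C3ar1. Promoters were found for 5 of the 9 genes. Capitals mark matches on either strand to short motifs.
C1qb: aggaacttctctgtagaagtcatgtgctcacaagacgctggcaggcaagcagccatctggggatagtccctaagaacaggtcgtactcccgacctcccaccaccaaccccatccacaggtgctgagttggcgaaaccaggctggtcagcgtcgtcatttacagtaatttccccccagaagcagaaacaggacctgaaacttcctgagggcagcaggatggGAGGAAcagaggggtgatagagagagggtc
C1qc: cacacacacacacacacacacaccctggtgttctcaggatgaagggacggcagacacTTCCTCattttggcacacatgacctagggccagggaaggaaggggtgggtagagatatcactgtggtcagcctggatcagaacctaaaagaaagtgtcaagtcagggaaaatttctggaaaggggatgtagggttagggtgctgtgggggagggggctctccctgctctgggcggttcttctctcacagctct
C3ar1: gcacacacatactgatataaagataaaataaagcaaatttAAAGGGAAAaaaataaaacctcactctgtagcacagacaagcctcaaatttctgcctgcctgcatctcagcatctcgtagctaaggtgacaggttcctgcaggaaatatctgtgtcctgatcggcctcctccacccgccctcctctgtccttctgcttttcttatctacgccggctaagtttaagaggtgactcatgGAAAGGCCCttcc
Of the motifs searched, the PU.1-type ets motif GAGGAA was found in C1qb, beginning 30 bases before the start, and in C1qc, on the other strand, beginning 193 bases before it. GAGGAA was present in 23.3% of 32851 promoters of the same length. C3ar1 held TTTCNNTTT (an interferon response motif without its last base, in 9.37% of promoters) and GGGNNTTTC (an NF-kB-type motif without its last base, in 3.72%), both on the other strand, beginning 210 and 13 bases before the start. C3 held the C/EBP-type TTGCNNAA, beginning 45 bases before the start, which was in 9.56% of promoters. The STAT motif TTCNNNGAA, present in 7.02% of promoters, was in none of the 5, and C5ar1 held none of the motifs. No matches overlapped, and a match is a description of the letters, not a binding site.

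C3 and C4b, which act downstream of C1q, and Cfb of the alternative pathway varied most among the sham libraries. Normalised counts of C3, the central component, were 192, 200 and 3691 in sham and 1409, 640 and 970 in OHT. Sham replicate 3 was the highest of the 6 libraries and sham replicates 1 and 2 were the lowest. The mean was lower in OHT (1006 ± 386) than in sham (1361 ± 2017, SD, n = 3 each), while the log2 difference was above 0, at 0.87 (SE 0.96, limma adjusted p = 0.711). Without sham replicate 3 it was 2.28, and without sham replicates 1 or 2 it was 0.15 or 0.18. With edgeR and DESeq2 on the recovered reads it was -0.54 and -0.43.

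C4b encodes the main form of complement C4 in the mouse. Its normalised counts were 324, 749 and 5577 in sham and 2097, 1930 and 1894 in OHT. On this scale the OHT libraries lay within 1.11-fold of each other, between sham replicate 2 and sham replicate 3, whereas the sham libraries spanned 17.2-fold. As shares of the library the OHT range was wider, at 31.9, 43.7 and 50.1 ppm, against 8.30, 19.0 and 131 ppm in sham. The log2 difference of the normalised counts was 0.83 (SE 0.81, adjusted p = 0.673 in limma), 2.0 without sham replicate 3 and -0.05 without sham replicate 1. It was -0.26 in edgeR and -0.17 in DESeq2. C4a, its near-identical neighbour, had mean normalised counts of 13.7 in sham and 23.6 in OHT, and reads of the pair may have been split or left out in counting.

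Cfb, a protease of the alternative pathway, was at 201, 88.6 and 2856 in sham and at 267, 1709 and 450 in OHT. Sham replicate 3 and OHT replicate 2 were high and the other 4 libraries low, so the groups overlapped. In limma its log2 difference was 0.67 (SE 1.13, adjusted p = 0.812), between -0.36 (without sham replicate 2) and 2.13 (without sham replicate 3), and -0.44 and -0.37 in edgeR and DESeq2. C2, the homologue of Cfb in the classical pathway, was at 262, 279 and 845 in sham and 156, 728 and 755 in OHT, a log2 difference of 0.16 (SE 0.76, limma adjusted p = 0.938).

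Serping1, the C1 inhibitor, had normalised counts of 632, 781 and 4978 in sham and of 718, 1193 and 1415 in OHT. It was highest in sham replicate 3 and otherwise similar in both groups. The log2 difference by limma was -0.34 (SE 0.70, adjusted p = 0.847) and 0.60 without sham replicate 3. It was also above 0, at 0.85 and 0.56, with the rod or the microglia list as a covariate.

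For these 4 genes sham replicate 3 was above the mean of the other 2 sham libraries by 18.8-fold (C3), 10.4-fold (C4b), 19.7-fold (Cfb) and 7.04-fold (Serping1). The same ratio was 1.21 for C1qa, 1.04 for C1qb, 1.13 for C1qc, 1.22 for C3ar1 and 0.826 for C5ar1. In that library the astrocyte list of 6 genes summed to 1362 ppm, against 41.7 and 803 ppm in sham replicates 1 and 2 and 51.1 to 132 ppm in OHT. Its mural and fibroblast list summed to 259 ppm, against 117 and 217 ppm in the other sham libraries and 8.88 to 40.7 ppm in OHT. Its border macrophage and monocyte list was at 573 ppm, against 427 and 454 ppm in the other sham libraries and 289 to 988 ppm in OHT. Its endothelial list was the lowest in sham, at 216 ppm. So was its Müller glia list, at 3376 ppm against 3541 and 8423 ppm in sham replicates 1 and 2. Its rod list was at 20904 ppm, against 2743 and 26203 ppm in those libraries. With the mean of the microglia list as a covariate the differences of C3, C4b and Cfb were 1.65, 1.80 and 1.80, and when rod genes took its place they were 2.35, 2.54 and 1.09. The part of the other cells in the result was not tested. Without sham replicate 3, C3, C4b and Cfb joined C1qa, C1qb and C3ar1 as higher in every OHT library, 6 of 9 against 12.9% of all genes. Without OHT replicate 3 there were 4 of 9, with C1qc, against 16.2% of all genes. Both libraries were singled out by the values of these same genes. These counts therefore follow in part from that choice and carry no test.

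**Figure D4:**
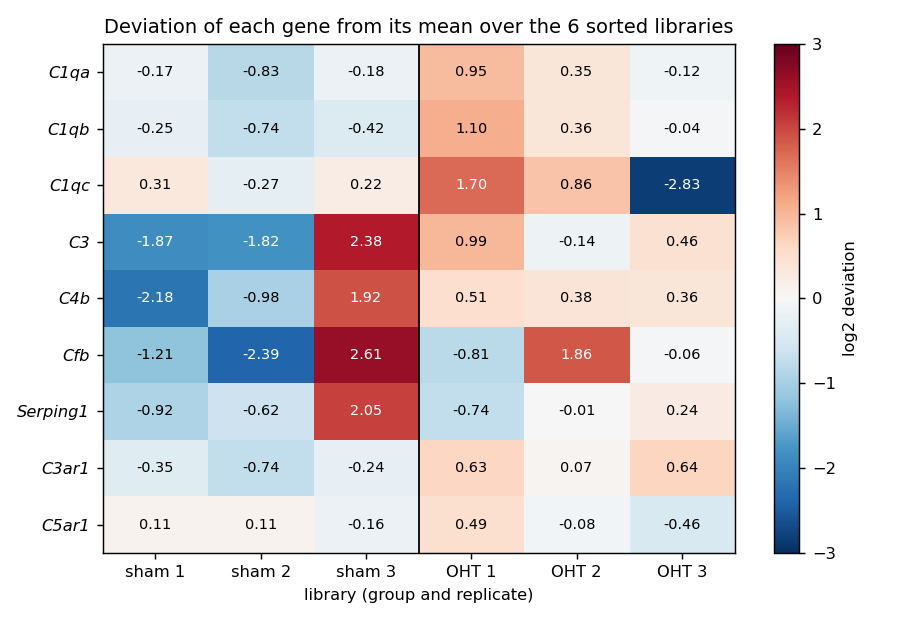
Deviation of each gene, as log2(normalised count + 1), from its own mean over the 6 sorted libraries, with the value in each cell (blue low, red high; rows are genes, columns are libraries). Sham replicate 3 is high for C3 (2.38), C4b (1.92), Cfb (2.61) and Serping1 (2.05), and OHT replicate 3 is low for C1qc (-2.83).

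The receptors C3ar1 and C5ar1, both expressed by myeloid cells, were the next most abundant of these genes per length, and C3ar1 was the higher of them in each OHT library. Normalised counts of C3ar1, the receptor of C3a, were 24043, 18310 and 25907 in sham and 47500, 32278 and 47716 in OHT. All OHT libraries were above the sham range, and on normalised counts OHT replicate 2 was nearest to it. In ppm the OHT libraries were at 722, 732 and 1263, against at most 615 in sham, and OHT replicate 1 was nearest. The log2 difference was 0.89 (SE 0.33, unadjusted p = 0.0205, limma adjusted p = 0.365), between 0.74 and 1.08 with 1 library left out. It was 0.85 (SE 0.38) with the microglia list as a covariate, and 0.44 (adjusted p = 0.586) on quantile-normalised values. Per summed ppm of the microglia list C3ar1 was at 0.0251, 0.0268 and 0.0514 in sham and 0.0386, 0.0391 and 0.0698 in OHT, where sham replicate 3 lay inside the OHT range.

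Normalised counts of C5ar1, the receptor of C5a, were 13065, 13083 and 10802 in sham and 16968, 11421 and 8793 in OHT. On this scale OHT replicate 1 lay above the sham range, OHT replicate 2 inside it and OHT replicate 3 below it. By limma the OHT libraries differed from sham by a log2 of -0.04 (SE 0.34, adjusted p = 0.968), between -0.29 and 0.18 with 1 library left out. As a share of the library, C5ar1 averaged 307 ppm (SD 46.0, n = 3) in sham and 250 ppm (SD 14.8, n = 3) in OHT. The OHT libraries were at 258, 259 and 233 ppm, against 334, 333 and 254 ppm in sham, so no OHT library was above the sham range in ppm. C5ar2, a second C5a receptor, had a log2 difference of 0.55 (SE 0.54, limma adjusted p = 0.674). Whether C3ar1 and C5ar1 differ in their response was not tested.

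The genes nearest to each complement gene were found by the root mean square difference of log2 deviations over the 6 sorted libraries, among 11521 other genes with a mean of at least 100. Nearest to C1qa were Cd180, a Toll-like receptor homologue (0.0788), Psme2, a proteasome activator subunit (0.0797), and Clic1 (0.0902). Nearest to C1qb were Cfl1, which encodes the actin-severing protein cofilin (0.0523), Bax (0.0896) and Akr1b3 (0.0978). C1qa and C1qb differed by 0.127 from each other, and without OHT replicate 3 C1qb and C1qc differed by 0.0634. Nearest to C1qc were Chst14 (0.179), Bola3 (0.202) and Otulinl (0.218). All 3 were also lowest in OHT replicate 3, Otulinl at 1831 against 14612 to 36244 elsewhere. C3ar1 was nearest to Prxl2b (0.0787), Mrpl16 (0.0824) and Pwp1 (0.0885), and C5ar1 to Lcorl (0.0753), Ndufv1 (0.0830) and Pnrc1 (0.0868).

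The nearest genes of C3, C4b, Cfb and Serping1 were farther away. C3 was nearest to Gpr132 (0.523), the invariant chain gene Cd74 (0.686) and Iigp1c (0.723), and C4b to Car13 (0.541), Myof (0.545) and Cd74 (0.555). Cd74, which serves antigen presentation, was at 157589, 200164 and 952572 in sham and at 1150190, 685188 and 605444 in OHT, so that it was high in sham replicate 3 and in all OHT libraries. Cfb was nearest to Xdh (0.563), Antxr2 (0.735) and the interferon-inducible GTPase gene Iigp1 (0.756). Serping1 was nearest to Tbx2 (0.325), Zfp707 (0.437) and Gbp8 (0.448). These are distances over 6 libraries that share the sort and the scaling, and they carry no test.

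The rest of the pathway was read from a list of 55 complement genes that includes the 9 described above. Of the 55, 42 were listed for the sorted cells. Genes not listed were Mbl1, Mbl2, Fcnb, Colec10 (lectin pathway), Cfd (alternative pathway), Hc, C7, C8a, C8b, C9 (terminal pathway), C4bp, Cd55b and Vsig4. Of the 46 other genes 29 had a mean of at least 10 and were fitted: 14 were higher and 15 lower in OHT, with a median log2 difference of -0.04 against -0.12 over all genes, and none passed the adjusted threshold. The unadjusted p was under 0.05 for 2 higher genes (Itgax and Cd93) and 1 lower gene (Vtn), against 5.37% and 6.3% of all genes. Cd93 was without overlap on the higher side and Vtn on the lower side, which held for 9.26% and 9.18% of all genes.

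Among initiating genes 4 of 8 fitted were higher. Masp1, a protease of the lectin pathway, was at 230, 214 and 220 in sham and at 2115, 330 and 179 in OHT, the spread lying in OHT replicate 1. Its log2 difference was 1.17 (SE 0.85, limma adjusted p = 0.575) and 0.13 without that library. Colec12, a scavenger receptor of the collectin family, had a log2 difference of -0.31 (SE 0.76). Properdin (Cfp), which stabilises the alternative convertase, was at 1400 ± 612 in sham and 1498 ± 871 in OHT. Of the terminal genes C6 and C8g were fitted, both at mean normalised counts under 50 in each group. C6 had 0 reads in sham replicates 1 and 2 and C8g had 0 reads in OHT replicate 3, and neither log2 difference passed the test (2.75, SE 1.92, adjusted p = 0.562, and -1.69, SE 1.68, adjusted p = 0.681, in limma). In edgeR and DESeq2 the differences were smaller, at 0.63 and 0.71 for C6 and at -0.56 and -0.50 for C8g.

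Of the soluble regulators other than Serping1, clusterin and vitronectin are described. Clusterin (Clu), which blocks the terminal complex and is made by Müller glia and astrocytes, was at 44874, 148863 and 119038 in sham and at 47537, 42568 and 61425 in OHT, sham replicate 1 lying with the OHT libraries. Its log2 difference was -0.89 (SE 0.46, limma adjusted p = 0.468); once the rod list entered the fit it was 0.31. Vitronectin (Vtn) was at 3577, 14373 and 14363 in sham and at 930, 966 and 1759 in OHT. All OHT libraries were below the sham range. The log2 difference of Vtn was -2.95 (SE 0.54, unadjusted p = 0.000160, limma adjusted p = 0.332). DESeq2 on the recovered reads gave -3.14 with an adjusted p of 1.5e-05. Lists of other cells stood lower in OHT as well. The mural and fibroblast list was at 117, 217 and 259 ppm in sham and at 40.7, 8.88 and 29.0 ppm in OHT, without overlap. The endothelial list was also without overlap, at 250, 458 and 216 ppm in sham and 108, 111 and 203 ppm in OHT. Means of the Müller glia list (5113 and 2575 ppm) and the astrocyte list (735 and 85.2 ppm) were lower in OHT too, with overlap. The part of these lists in the Vtn value was not tested. The summed rod list, which overlapped between the groups, was at 26203 and 20904 ppm in sham replicates 2 and 3 and at 2743 ppm in sham replicate 1, where Vtn was also lower. With rod genes as a covariate (their mean log2 value) the log2 difference of Vtn was -1.34. Without sham replicate 1 it was -3.62, with a limma adjusted p of 0.0253.

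Of the 7 membrane regulators fitted, 2 were higher and 5 lower, none without overlap. Cr1l (Crry), the widely expressed rodent regulator of C3 cleavage, was at 2420 ± 716 in sham and 3878 ± 757 in OHT, a log2 difference of 0.70 (SE 0.36, limma adjusted p = 0.468). Cd59a, which stops the membrane attack complex, was at 847 ± 410 and 394 ± 360, a log2 difference of -1.38 (SE 0.71, limma adjusted p = 0.466). It was -0.068 when rod genes entered the fit and -0.85 without OHT replicate 1. Susd4 had a log2 difference of -1.32 (SE 1.23).

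Of the 7 other receptor and C1q-binding genes fitted, 6 were higher. Cd93, a membrane protein once described as a C1q receptor, was at 915, 1139 and 1674 in sham and at 3823, 1914 and 2338 in OHT. Its libraries did not overlap, with a log2 difference of 1.10 (SE 0.42, limma adjusted p = 0.372). Itgax, the alpha subunit of complement receptor CR4, was named after its values were seen. It was at 1184, 658 and 2353 in sham and 3416, 3792 and 2248 in OHT, with a log2 difference of 1.33 (SE 0.48, limma adjusted p = 0.363) and 1 overlapping library on each side. The subunits of complement receptor CR3, Itgam and Itgb2, had log2 differences of 0.09 (SE 0.35) and 0.16 (SE 0.33), and on quantile-normalised values both were below 0, at -0.30 and -0.27. Lrp1 had a log2 difference of 0.07 (SE 0.37).

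**Figure D5:**
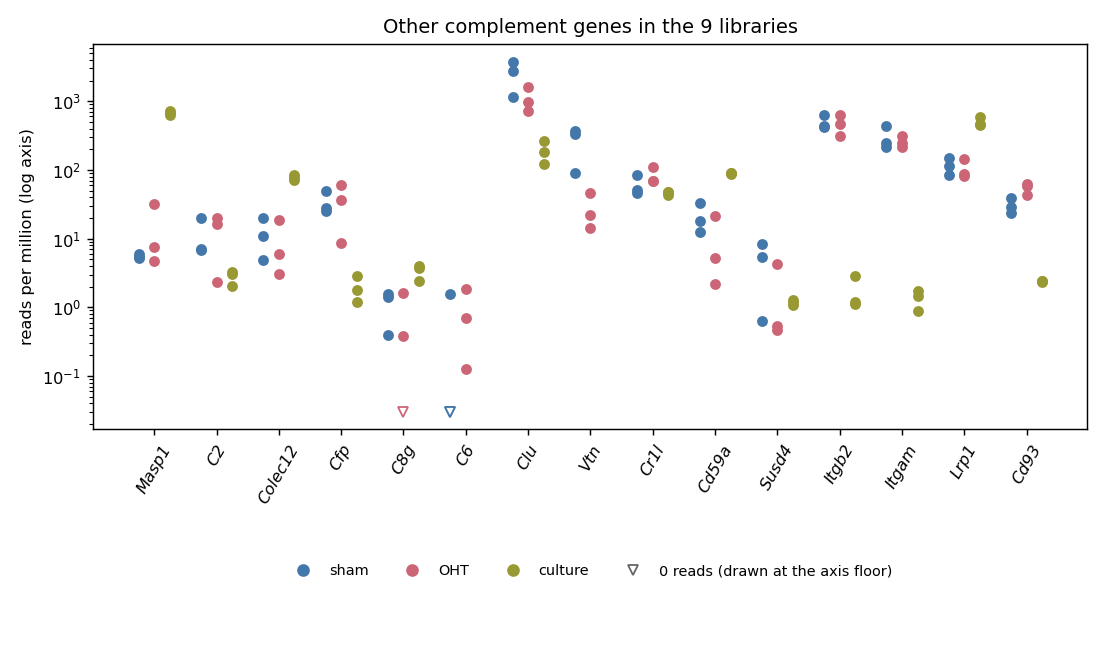
Levels of 15 other complement genes that the naming rule selected, in ppm of the library total (log axis); each point is 1 library of the sham, OHT or culture group, and open triangles are libraries with 0 reads. Masp1, Colec12, C8g, Cd59a and Lrp1 are higher in all cultures than in any sorted library, Vtn is lower in all OHT than in all sham libraries, and C6 and Vtn have no culture points because the culture table does not list them.

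In the primary cultures the C1q genes and the receptors were low, and Serping1 led. The tables were normalised separately, so levels across them are shares of each library's reads, without a test. C1qa was at 2.60 ± 1.23 ppm, C1qb at 4.60 ± 2.30 ppm and C1qc at 1.86 ± 1.90 ppm in the cultures (SD, n = 3). In sham they were at 2248 ± 510, 6157 ± 1071 and 4371 ± 874 ppm, which is 866, 1338 and 2353 times the culture means. The lowest sorted library was still 433, 734 and 157 times above the highest culture. C1qc had 6 reads in culture replicate 1, 122 in replicate 2 and 297 in replicate 3, and its ratio to C1qb reads was 0.0361, 0.380 and 0.548. The ratio of C1qa to C1qb was 0.548 to 0.589 in the cultures, above that in the sorted libraries.

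C3ar1 was at 9.29 ± 1.94 ppm in the cultures against 563 ± 84.7 ppm in sham and 906 ± 310 ppm in OHT, and C5ar1 at 2.97 ± 0.880 ppm against 307 ± 46.0 and 250 ± 14.8 ppm. C3, at 0.402 ± 0.226 ppm, was the lowest of the 9 in culture, with 14 reads in culture replicate 1. C4b was at 2.49 ± 1.12 ppm and Cfb at 1.80 ± 0.295 ppm. For Cfb the lowest sorted library, sham replicate 2 at 2.25 ppm, was 1.12 times the highest culture. The microglia list summed to 91.0 to 132 ppm in these cultures, and its part in these values was not tested.

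Serping1 was at 40.7, 53.2 and 95.7 ppm in the cultures, against 16.2, 19.9 and 117 ppm in sham and 10.9, 27.0 and 37.5 ppm in OHT. Each culture was above all OHT libraries and above sham replicates 1 and 2, and below sham replicate 3. Per kb of exon it was the highest of the 9 genes in culture, at 27.2 ± 12.4 ppm per kb, with no overlap with C1qb, the next at 4.23 ± 2.11. Among the other complement genes Masp1 was at 671 ± 47.9 ppm in the cultures and 5.50 ± 0.366 ppm in sham, Lrp1 at 499 ± 73.4 and 117 ± 33.8 ppm, and Cd59a at 90.0 ± 1.29 and 21.1 ± 10.6 ppm. Colec12 was at 78.0 ± 5.98 and 11.9 ± 7.58 ppm. Clu went the other way, at 190 ± 69.3 ppm in culture and 2577 ± 1332 ppm in sham. Of the 55 complement genes, 44 were in the culture table, where Vtn and C6 were not listed.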

How the data were processed

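The 9 libraries were made from total RNA with an ultra-low input cDNA kit that amplifies by template switching, and sequenced as 150 bp pairs, per the labels' protocols. The submitters' processing notes name bcl2fastq 2.20, Trim Galore 0.6.6, FastQC 0.11.9, STAR 2.7.1a and the build mm39; how reads were counted, with which annotation and strand setting, and what computed the normalization is not given in the sources used here. The deposited signal is 1 normalised count per gene and library, in separate tables for sorted cells and cultures. The deposited columns hold read counts that the authors divided by 1 factor per library, and not by gene length: 100% of values came out as whole reads at a tolerance of 0.05 reads. In culture replicate 3 that factor is close to 1, so the check is not independent there. In OHT replicate 1 a single read stood for a value of 1.38, against 0.823 and 0.801 in OHT replicates 2 and 3. In sham it stood for 0.922 to 1.03. The order of the OHT libraries can therefore differ between normalised counts and shares of the library. Reads that may be shared by C4b and C4a, or by overlapping genes, cannot be told apart.

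OHT was compared with sham with limma 3.58.1 (lmFit, eBayes with trend, R 4.3.3) on log2(value + 1), in 14403 genes with a mean of at least 10, with Benjamini-Hochberg adjustment over all of them and a threshold of 0.05. All 9 complement genes passed the filter. The added 1 draws fold changes of low genes toward 0. For C6 and C8g, which have libraries with 0 reads, the differences on this scale were nevertheless larger than in edgeR and DESeq2. Levels per kb used merged exons of GENCODE M21. Promoter sequences came from RefSeq (GRCm38.p6). Alternatives were other pseudocounts, filters, scalings, weights and covariates, a replicate block, each library left out, and edgeR 4.0.16 and DESeq2 1.42.0 on recovered reads. The fit was run on simulated reads whose changes were larger than the differences of C1qa, C1qb and C3ar1. It was not tested at differences of their size. Figures used Python 3.11.15 and matplotlib 3.10.9. Named genes were the 9, and of 46 other complement genes up to 3 per role with the highest mean in the sorted table, 1 with the highest in culture, and those whose groups did not overlap; for likeness, the 3 nearest genes per member. C4a, C5ar2, C1qbp and Itgax were named outside this rule, after their values were seen. 1 gene that this rule selects is not reported here, and counts over lists include it. The genes, lists and tests were chosen with earlier results of these data known. Replicates differed by more than sampling noise in each pair (chi-square per gene at least 51.5). The reads carry no molecular identifiers, so copies of 1 molecule may be counted as several.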

Additional observations from a re-analysis of the deposited data

How the results depend on the processing

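Counts of the 9 genes reached down to 96 reads in the sorted libraries (Cfb in sham replicate 2) and to 6 and 14 reads in the cultures (C1qc and C3 in replicate 1), where counting error limits the values. In limma the number of all genes called was 0 under the other pseudocounts, filters and scalings, without trend, with array weights and with either list as a covariate, 0 to 12 with 1 library left out (12 without sham replicate 1, 7 without sham replicate 3), 0 in edgeR (1575 at an unadjusted p under 0.05) and 250 in DESeq2 (2028 unadjusted, 510 genes without an adjusted p). None of the 9 genes was called under any of these alternatives, and 2 in edgeR and 3 in DESeq2 had an unadjusted p under 0.05. Same-numbered sham and OHT libraries did not deviate together (r across genes 0.08, -0.02 and -0.05), so the replicate block was read as a check: with the replicate block 2 genes were called, none of the 9, and every log2 difference was the same. Over all genes the median log2 difference was -0.12 as deposited, -0.18 with TMM factors, 0.01 on quantile-normalised values and -0.00 in DESeq2. Members higher without overlap, counted in a check chosen after seeing the data, numbered 3 to 6 with 1 library left out, where the share of all genes was 10.8% to 18.0%.

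C1qa, C1qb, C3ar1, C6, Cd59a, Cd93, Cr1l, Masp1 and Vtn kept their direction under each alternative that gave a value, though not their size: Cd59a was at -0.068 with the rod list as a covariate, and Masp1 at 0.13 without OHT replicate 1. Of the culture levels, C1qc went from 1.86 to 0.852 ppm without culture replicate 3. Vtn passed in limma without sham replicate 1 (adjusted p 0.0253) and in DESeq2. With 1 library left out the log2 difference changed sign for C1qc (-1.08 to 1.19), C4b (-0.052 to 2.0), Cfb (-0.36 to 2.13), Serping1 (-0.89 to 0.60), C5ar1 (-0.29 to 0.18), C2 (-0.23 to 0.90), Colec12 (-0.95 to 0.21), Cfp (-0.46 to 0.54), C8g (-2.96 to 0.13), Itgb2 (-0.018 to 0.33), Itgam (-0.068 to 0.37) and Lrp1 (-0.16 to 0.34). With edgeR and DESeq2 it turned to 0.60 and 0.69 for C1qc, -0.54 and -0.43 for C3, -0.26 and -0.17 for C4b, -0.44 and -0.37 for Cfb and 0.039 and 0.098 for Cfp, with edgeR alone to -0.0011 for Itgam, and with DESeq2 alone to 0.0096 for C5ar1. On quantile-normalised values it turned to 0.12 for Colec12, -0.27 for Itgb2, -0.30 for Itgam and -0.22 for Lrp1. With the rod list as a covariate it turned to 0.85 for Serping1, 0.39 for Colec12, 0.50 for Cfp, 0.31 for Clu, 1.79 for Susd4, -0.36 for Itgb2, -0.65 for Itgam and -0.58 for Lrp1. With the microglia list as a covariate it turned to 0.56 for Serping1, 0.46 for Colec12, 0.61 for Cfp, -0.26 for Itgam and -0.13 for Lrp1. With array weights it turned to 0.15 for Cfp. The cause of these changes was not tested.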
